A study of Mus musculus with 31 samples.

Results

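Interscapular brown adipose tissue (iBAT) was set against inguinal white adipose tissue (iWAT) of mice that had spent 2 days at 4 °C, to measure how far apart brown fat and cold-exposed inguinal fat stood at that time. The comparison holds 7 of the 31 RNA-seq libraries of the series, chosen by depot and day alone: 4 iBAT libraries (iBAT532, iBAT534, iBAT535 and iBAT539) and 3 iWAT libraries (iWAT532, iWAT538 and iWAT539). Counts of the depots were joined on the 13601 RefSeq transcript accessions with a row in both count tables, and 9843 of them passed the filter on low counts and were tested. All mice were male, of strain C57BL/6J and 8 weeks old, and all had first been held at thermoneutrality for 8 days, where a mouse needs no extra heat. Day 0 groups of mice killed without cold exposure, 3 iBAT and 4 iWAT libraries, gave the gap between the depots before cold. Whole dissected depots were sequenced, so fewer cells of a type and less RNA per cell cannot be told apart. The labels do not say whether replicates came from separate mice. The p-values therefore measure the spread between libraries of a group, which may in part be technical. In the main fit that spread was estimated over all iBAT and iWAT libraries of the series, those of day 4 included. It is thus not the spread of the day 2 and day 0 libraries alone.

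Brown adipocytes are packed with mitochondria and burn fatty acids and glucose to make heat, chiefly through UCP1, which lets protons re-enter the mitochondrial matrix without making ATP. Noradrenaline released by sympathetic nerves in the cold acts on adrenergic receptors, raises cyclic AMP, starts lipolysis and induces Ucp1, Dio2 and other heat production genes. Inguinal fat is a white depot that stores triglyceride, and in the cold it forms beige adipocytes, which express Ucp1 in cells of another developmental origin than classical brown adipocytes.

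Total counts ran from 1.58 to 2.99 M in the iBAT libraries and from 3.46 to 3.64 M in the iWAT libraries at day 2. Single-count features numbered 159 in iBAT539, while the remaining iBAT libraries held 1130 to 1224 of them and the iWAT libraries 1101 to 1236. Low counts may thus be missing from iBAT539, and a gene without a value there cannot be read as unexpressed. Along an axis of within-group spread that the other depots of the series also show, iBAT535 and iBAT539 scored 55.3 and 51.4, iBAT532 and iBAT534 scored -37.2 and 0.42, and the iWAT libraries scored between -53.2 and -7.27. Each depot has its own axis, drawn from the other depots, and its scores are centred on its own mean over all days. Scores of iBAT and iWAT are therefore not on one scale, and they can also hold effects of the day. Results are therefore also given without single libraries, or without iBAT535 and iBAT539, where that matters. Levels of genes are given as CPM, counts scaled to the TMM-adjusted library size, log2 differences are iBAT over iWAT from edgeR with their standard error (SE), and a gene is called past an adjusted p of 0.05.

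At day 2, 715 genes were called higher in iBAT, 7.26% of those tested, and 940 were called higher in iWAT, 9.55% of those tested. In 1225 genes (12.4%) all 4 iBAT libraries lay above all 3 iWAT libraries, and in 1788 genes (18.2%) all iWAT libraries lay above all iBAT libraries. The fitted difference exceeded 2-fold in 3999 genes (40.6%), and 1655 (16.8%) were called in either direction. With library size as the only scaling, the counts were 359 higher in iBAT and 1612 higher in iWAT, and that scaling moved the median log2 difference of all genes by -0.52. Without iWAT532, iWAT538 or iWAT539, 395, 419 and 287 genes were called higher in iBAT, and without iWAT539, 616 genes were called higher in iWAT. With iBAT535 and iBAT539 left out, the counts were 321 and 474. The median gene differed by 0.94 on the log2 CPM scale between an iBAT and an iWAT library (range 0.77 to 1.30 over 12 pairs), by 0.81 between iBAT libraries (0.61 to 0.92 over 6 pairs) and by 0.46 between iWAT libraries (0.40 to 0.61 over 3 pairs). The spread among the brown fat libraries thus overlapped the distance between the depots.

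Of 17 tested members of a list of heat production and cold-induced brown genes, 12 were called higher in iBAT, none was called higher in iWAT, and all 17 had a positive log2 difference. The median of the list was 2.60, against 0.00 over all genes tested. The median iWAT level was 16.5% of the iBAT level. Without iBAT535 and iBAT539 the call held for 8 of the 17, and without iWAT539 for 6.

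Ucp1 itself did not pass the test at day 2. It stood at 28077, 38989, 11020 and 7290 CPM in iBAT532, iBAT534, iBAT535 and iBAT539, against 7892, 5694 and 3340 CPM in iWAT532, iWAT538 and iWAT539. The groups overlapped, because iBAT539 lay below iWAT532. The log2 difference was 1.92 ± 0.81 (SE, adjusted p = 0.111), and the iWAT mean was 26.4% of the iBAT mean. Cidea, which encodes a protein that enlarges lipid droplets, had 626, 336, 131 and 365 CPM in iBAT and 164, 86.2 and 67.6 CPM in iWAT, again with an overlap (log2 difference 1.78 ± 0.66, adjusted p = 0.0688). Cox8b, a respiratory subunit of brown fat and muscle, ranged from 622 to 14373 CPM over the iBAT libraries and from 165 to 1325 CPM over the iWAT libraries. It was not called (log2 difference 3.41 ± 1.48, adjusted p = 0.121). Pdk4, a kinase that shuts off pyruvate dehydrogenase and was named after its values were seen, had a log2 difference of 1.63 ± 0.65 (adjusted p = 0.0903). With the library score as a covariate Cidea and Pdk4 were called (adjusted p = 0.0105 and 0.0073), and Ucp1 was not (adjusted p = 0.0817). The difference of Cox8b was 0.58 with the score (adjusted p = 0.505) and 1.41 without iBAT535 and iBAT539 (adjusted p = 0.7). Without iBAT535 alone, Cidea was called (adjusted p = 0.0467). With edgeR fitted to the day 2 libraries alone, Cidea and Cox8b were called (adjusted p = 0.0410 and 0.0405). Ucp1 and Pdk4 were not called in that fit (adjusted p = 0.0562 and 0.0667). DESeq2 called Cidea (adjusted p = 0.0460) but not Cox8b, Ucp1 or Pdk4 (adjusted p = 0.0547, 0.0704 and 0.0658).

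Dio2 and Elovl3 passed the test. Dio2, the deiodinase that makes active thyroid hormone inside the brown adipocyte, had 453, 542, 313 and 336 CPM in iBAT, against 76.1, 61.6 and 26.4 CPM in iWAT. Every iBAT library lay above every iWAT library, with a log2 difference of 2.91 ± 0.80 (adjusted p = 0.0156). Elovl3, an elongase of very long fatty acids that cold induces in brown fat, had 1141, 661, 732 and 442 CPM in iBAT and 71.0, 132 and 47.1 CPM in iWAT, also without overlap (log2 difference 3.15 ± 0.89, adjusted p = 0.0170). Both calls were lost without single iWAT libraries: the adjusted p was 0.0545 and 0.0997 for Dio2 without iWAT538 and without iWAT539, and 0.0743 and 0.103 for Elovl3 without iWAT532 and without iWAT539. The iWAT means were 13.3% and 11.2% of the iBAT means for Dio2 and Elovl3.

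The promoters of Ucp1 and Dio2, a gene that was not called and a gene that was, are shown because cyclic AMP signalling reaches such genes through CRE motifs. The windows, from the RefSeq table for GRCm38.p6, run from 250 bases before to 50 bases after the start site, 5′ to 3′ on the strand of the gene, and capitals mark the short CRE motif TGACG on either strand. Ucp1 lies on the plus strand at chr8:83290098-83290397 and Dio2 on the minus strand at chr12:90738989-90739288.
Ucp1: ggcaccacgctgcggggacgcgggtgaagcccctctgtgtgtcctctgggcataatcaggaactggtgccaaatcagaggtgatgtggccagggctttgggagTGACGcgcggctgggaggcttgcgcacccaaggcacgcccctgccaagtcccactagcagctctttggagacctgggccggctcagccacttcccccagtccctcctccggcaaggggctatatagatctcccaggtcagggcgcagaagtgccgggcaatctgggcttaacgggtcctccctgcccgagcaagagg
Dio2: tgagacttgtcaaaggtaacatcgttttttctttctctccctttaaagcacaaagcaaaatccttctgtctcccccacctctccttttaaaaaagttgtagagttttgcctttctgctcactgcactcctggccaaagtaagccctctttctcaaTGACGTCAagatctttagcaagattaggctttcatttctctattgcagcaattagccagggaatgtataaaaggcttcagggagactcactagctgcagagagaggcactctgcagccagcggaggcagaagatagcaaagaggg
The Ucp1 window held a single short motif, 147 bases before the start site, and the Dio2 window held the full palindrome TGACGTCA, in which the short motif reads on both strands, 95 bases before it. Among the 12 heat production genes with a promoter in the table, 3 (25%) held the short motif, against 34.1% of 7647 tested genes, and 1 (8.33%) held the full palindrome, against 3.43% of tested genes. A match is only a match of letters, and a window without one says nothing about the factor.

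Other members of the list were also called higher in iBAT. Bmp8b, which encodes a secreted factor that raises the response of brown fat to noradrenaline, had 41.8, 19.2, 22.6 and 12.5 CPM in iBAT and 0.538, 0 and 0.227 CPM in iWAT, where all 3 libraries held 3 counts together. Its pooled ratio was 93.9, with a 95% counting interval of 32.1 to 455. Slc27a2, an acyl-CoA synthetase and fatty acid transporter, had 117, 170, 170 and 237 CPM in iBAT, against 16.7, 24.1 and 11.6 CPM in iWAT (log2 difference 3.31 ± 0.66, adjusted p = 0.0013). Acot11, a thioesterase of brown fat, differed by 3.10 ± 0.68 (adjusted p = 0.00296), and Slc25a20, which carries acylcarnitines into mitochondria, by 2.55 ± 0.58 (adjusted p = 0.00391). Cox7a1, the heart and muscle form of a cytochrome c oxidase subunit that is also a brown fat marker, had 1975, 2899, 2785 and 1194 CPM in iBAT and 452, 349 and 298 CPM in iWAT (log2 difference 2.60 ± 0.60, adjusted p = 0.00432). None of these 5 genes overlapped between the depots.

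**Figure D1:**
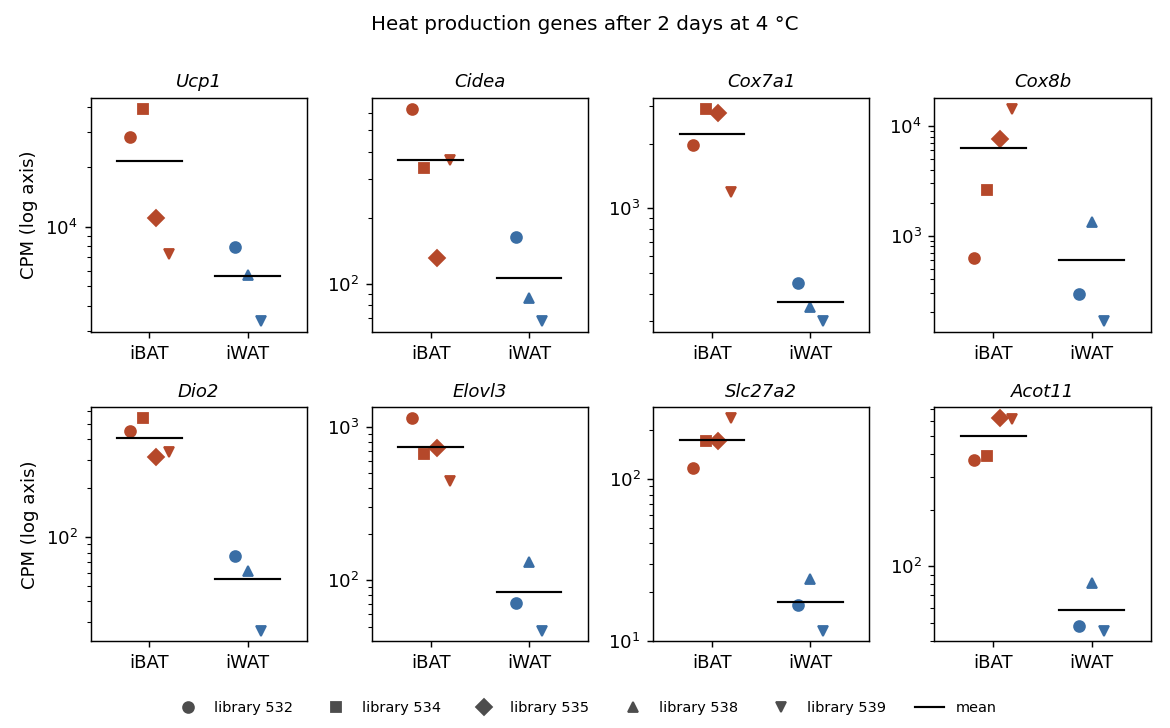
CPM of 8 heat production genes in each library at day 2, on log axes, with iBAT left and iWAT right; symbols mark the label number and bars the mean. Cox7a1, Dio2, Elovl3, Slc27a2 and Acot11 are separated between the depots, while Ucp1, Cidea and Cox8b overlap.

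Markers of other tissues in the dissected depots moved with this comparison. Sums of marker lists are CPM on the plain library total. The summed level of the skeletal muscle markers ran from 6961 to 11211 CPM in iBAT and from 30.7 to 89.9 CPM in iWAT. Of 17 tested muscle markers, 15 were called higher in iBAT, and 3 had no count in iWAT. The summed B and T lymphocyte markers ran from 8.04 to 20.8 CPM in iBAT and from 2993 to 3941 CPM in iWAT, and all 12 tested markers were called higher in iWAT. The lymph node stroma and sinus markers ran from 4.63 to 11.4 CPM in iBAT and from 1523 to 2355 CPM in iWAT, with 5 of 5 called higher in iWAT. Each of these 3 sums was fully separated between the depots, and an exact two-sided permutation test gave the smallest p that 4 against 3 libraries allow, 0.0571. Genes that muscle or lymphocytes also express may share the direction of these markers, and the part of the markers in their differences was not tested. A gene said below to have moved with markers shared their direction between the depots, which says nothing of single libraries.

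**Figure D2:**
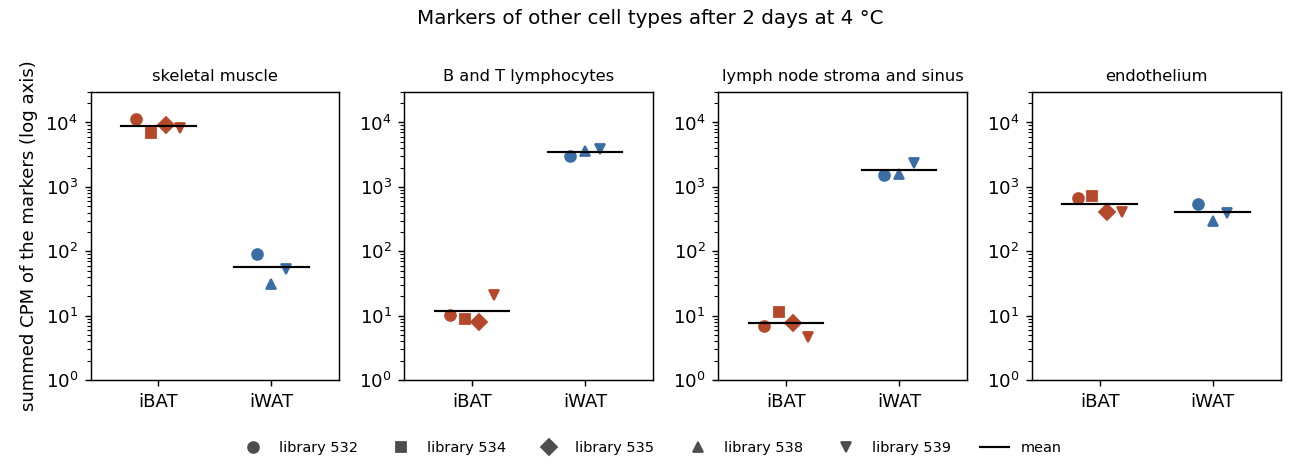
Summed CPM of 4 marker lists in each library at day 2, on a log axis, with iBAT left and iWAT right; symbols mark the label number and bars the mean. Muscle markers stand at 6961 CPM or more in iBAT and lymphocyte and lymph node markers at 1523 CPM or more in iWAT, while the endothelial sums of the depots overlap.

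Among the 10 genes furthest above in iBAT were Myl2, Myoz2, Myh1, Lmod2, Hrc, Mylk4 and Eef1a2, which encode muscle myosin, sarcomere and calcium store proteins, a muscle kinase and the muscle form of a translation factor, together with Ckmt2, Fitm1 and Ppp1r27. Myl2 stood at 118 to 830 CPM in iBAT, against 1 count over the iWAT libraries, a ratio of 5063 with a counting interval of 909 to 199991. Myoz2 was at least 332-fold higher and Fitm1 at least 243-fold higher in iBAT, each with no count in iWAT against a floor of 3 counts over the group. The 10 genes furthest above in iWAT all had no count in any iBAT library. Every floor in iBAT includes iBAT539, where low counts may be missing, so folds from it may be too high. Ccl19, a lymph node chemokine, stood at 108, 165 and 195 CPM in iWAT and was at least 361-fold lower in iBAT. Cr2 and Fcmr, receptors of B cells, were at least 226-fold and 150-fold lower. Cxcr5, Cd69, Izumo1r, Ikzf3, Slamf6 and Nsg2, most of them lymphocyte genes, were at least 76.2-fold to 148-fold lower. The tenth, Hoxc10, is a gene of body position. Glycam1, a gene of lymph node vessels with a row in the iWAT table only and named after its values were seen, averaged 1119 CPM on the plain total in iWAT and was at least 3297-fold lower in iBAT if its missing row is read as 0.

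Of 21 tested transcription factors that record body position, 4 were called higher in iBAT, 1 was called higher in iWAT and 16 were not called. Hoxc10, a homeobox gene of the hind part of the body, had no count in iBAT and 154, 60.6 and 48.2 CPM in iWAT. It was at least 202-fold lower in iBAT by a floor that includes iBAT539. Hoxa5, Hoxa4 and Hoxc5, homeobox genes of more anterior position, were called higher in iBAT. Hoxa5 had 47.8, 51.6, 110 and 46.6 CPM in iBAT, against 7.53, 6.96 and 8.64 CPM in iWAT (log2 difference 3.05 ± 0.52, adjusted p = 0.000294). Hoxa4 differed by 2.08 ± 0.41 (adjusted p = 0.0012) and Hoxc5 by 2.87 ± 0.69 (adjusted p = 0.0061). Hoxc4, next to Hoxc5 in its cluster, was separated between the depots at 13.9 to 49.2 CPM in iBAT and 4.78 to 6.45 CPM in iWAT, yet missed the threshold (adjusted p = 0.0788). Hoxc8 (log2 difference -0.41 ± 0.80, adjusted p = 0.772) and Tbx15 (0.76 ± 0.53, adjusted p = 0.354) overlapped between the depots, and the sign of Hoxc8 turned to 0.02 without iWAT538.

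Among the genes used to tell classical brown from beige and white fat, few behaved as a group. Zic1, a classical brown fat transcription factor, has a row in the iBAT table only, so it lies outside the joined accessions. On the plain library total it had 38.7, 28.6, 12.4 and 26.0 CPM in iBAT, and it was at least 93.7-fold higher there if its missing row is read as 0 in iWAT. Hoxc9, a white and beige marker of posterior position, has a row in the iWAT table only, with 9, 12 and 7 counts in iWAT, and was at least 7.80-fold lower in iBAT by the same reading. Of the 7 tested brown depot markers, Hspb7 and Fbxo31 were called higher in iBAT and Epsti1 was called higher in iWAT. The call of Fbxo31 was lost without iWAT532 (adjusted p = 0.0761), with library size alone, and without iBAT535 and iBAT539. Hspb7, a small heat shock protein that heart and skeletal muscle also express, had 27.0 to 159 CPM in iBAT and 0 to 0.807 CPM in iWAT and moved with the muscle markers. Epsti1, an interferon-induced gene also active in immune cells, had 2.95 to 5.64 CPM in iBAT and 134 to 302 CPM in iWAT and moved with the lymphocyte markers. Their part in both was not tested. Lhx8, a brown fat marker, had 14.2, 11.3, 3.29 and 3.48 CPM in iBAT and 4.30, 4.72 and 5.91 CPM in iWAT, where the depots overlapped (adjusted p = 0.518), and Oplah differed by 1.31 ± 0.62 (adjusted p = 0.157).

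The beige and white markers gave 2 and 1 calls. Of 7 tested beige markers, Slc36a2, an amino acid transporter, was called higher in iBAT at 1053 to 2425 CPM, against 445 to 815 CPM in iWAT (adjusted p = 0.034), a call that was lost without any of iBAT534, iBAT535 and the 3 iWAT libraries (adjusted p between 0.0589 and 0.172). Sp100, a nuclear body protein induced by interferon, was called higher in iWAT at 1.39 to 14.9 CPM in iBAT and 37.4 to 122 CPM in iWAT. Tbx1 (log2 difference -2.29 ± 1.18, adjusted p = 0.200) and Tmem26 (-1.52 ± 1.14, adjusted p = 0.4), genes by which beige cells were named, stood below 10 CPM in each library. Tmem26 had counts in iBAT539 alone among the iBAT libraries, and without iBAT539 it was called lower in iBAT (-6.17, adjusted p = 0.0257), a fit against a group at 0 that gives no fold. Of 7 tested white adipocyte markers, Fbn1, which encodes a microfibril protein, was called higher in iBAT. Lep, the satiety hormone leptin, had 4.23 to 36.2 CPM in iBAT and 26.1 to 41.9 CPM in iWAT (log2 difference -0.96 ± 0.79, adjusted p = 0.443), and Retn, which encodes resistin, differed by -1.75 ± 0.75 (adjusted p = 0.112). Adipoq, the adiponectin gene of all adipocytes, was level at 1625 ± 471 CPM in iBAT and 1783 ± 648 CPM in iWAT (SD, n = 4 and 3), with a log2 difference of -0.13 ± 0.68 whose sign turned in 3 alternatives.

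All 32 tested complex I genes had a positive difference and 13 were called higher in iBAT. Of complexes II and III, 9 of 13 were called higher, of complex IV 6 of 12, and of the ATP synthase 5 of 14, with no member of these 4 lists called higher in iWAT. The ATP synthase list held 2 members with a negative difference, and 1 of its members was called higher in iWAT with RLE scaling, with library size alone and in DESeq2. The list medians were 1.63, 1.69, 1.66 and 1.28, so the typical respiratory gene in iWAT stood at 32.2%, 30.9%, 31.7% and 41.2% of its iBAT level. Without iBAT535 and iBAT539 the calls were 3, 1, 4 and 0, and without iWAT539 they were 1, 1, 3 and 0.

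Ndufs7, a core subunit of complex I, had 1957, 2292, 2082 and 2391 CPM in iBAT, against 684, 750 and 671 CPM in iWAT (log2 difference 1.64 ± 0.40, adjusted p = 0.0072). The groups were far apart, and the call held without any 1 library. Uqcrfs1, the Rieske iron-sulfur protein of complex III, had 1385, 997, 3978 and 5030 CPM in iBAT and 221, 399 and 407 CPM in iWAT, separated but with iBAT535 and iBAT539 well above the other iBAT libraries (log2 difference 3.06 ± 0.79, adjusted p = 0.0102, and 0.0585 without iWAT532). Sdhb, the iron-sulfur subunit of complex II, ran from 763 to 2016 CPM in iBAT and from 358 to 502 CPM in iWAT (adjusted p = 0.0125, lost without iWAT538 or iWAT539 at 0.0602 and 0.0694). Cox6a1, the form of a complex IV subunit used outside muscle, had 675 to 903 CPM in iBAT and 219 to 271 CPM in iWAT (log2 difference 1.70 ± 0.40, adjusted p = 0.00484). Cox6a2, its heart and muscle form, differed by 7.11 ± 1.26 and moved with the muscle markers. Atp5e, a small ATP synthase subunit, had 25.1 to 36.9 CPM in iBAT and 5.91 to 10.9 CPM in iWAT (adjusted p = 0.00951, and 0.0728 without iWAT539). Cox6b1 had 972 to 20607 CPM in iBAT and 304 to 2280 CPM in iWAT and was not called (adjusted p = 0.0847).

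The pathways that feed the respiratory chain followed the same direction. In the tricarboxylic acid cycle 11 of 16 genes were called higher in iBAT, with a median log2 difference of 2.01. Suclg1, a subunit of succinyl-CoA ligase, had 5957, 7419, 9391 and 6258 CPM in iBAT, against 1027, 1861 and 1349 CPM in iWAT (2.36 ± 0.50, adjusted p = 0.00215). Cs, the citrate synthase often used as a measure of mitochondrial content, had 3848, 7116, 7893 and 3640 CPM in iBAT and 1548, 1557 and 1071 CPM in iWAT (2.01 ± 0.48, adjusted p = 0.00573). Both genes were fully separated between the depots. In the carnitine shuttle and beta-oxidation list, 13 of 20 genes were called higher in iBAT, with a median of 2.20 and all 20 positive. Acsl5, an acyl-CoA synthetase that activates fatty acids, had 580, 2059, 5303 and 2659 CPM in iBAT and 285, 271 and 126 CPM in iWAT (3.55 ± 0.73, adjusted p = 0.00177). Decr1, needed for unsaturated fatty acids, and Etfb, which passes electrons from acyl-CoA dehydrogenases, differed by 2.26 ± 0.55 and 1.94 ± 0.50, and the call of Etfb was lost without iWAT532 (adjusted p = 0.0574). Eci1, another enzyme of unsaturated fatty acids, was separated at 521 to 1754 CPM in iBAT and 156 to 367 CPM in iWAT but was not called (adjusted p = 0.0579). Without iWAT539, 3 of the cycle genes and 4 of the beta-oxidation genes were called.

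Amino acid, pyruvate and peroxisomal genes gave fewer calls. In branched-chain amino acid breakdown 4 of 15 genes were called higher in iBAT and all 15 were positive, with a median of 1.31. Dbt, the core of the branched-chain ketoacid dehydrogenase, had 407 to 773 CPM in iBAT and 83.3 to 188 CPM in iWAT (2.29 ± 0.42, adjusted p = 0.000633). Bckdha, another subunit of that complex, differed by 1.18 ± 0.41 and just missed the threshold (adjusted p = 0.0524). Of 12 genes of pyruvate entry and dehydrogenase, 4 were called, among them Dlat (1.73 ± 0.45, adjusted p = 0.00972, and 0.0784 without iWAT539), the acetyltransferase of the complex, and Mpc1, a subunit of the mitochondrial pyruvate carrier. Mpc1 had 1434, 1422, 6712 and 5868 CPM in iBAT and 499, 710 and 542 CPM in iWAT. The iBAT libraries fell into a low and a high pair, and the log2 difference of 2.73 was lost as a call without any of iBAT535, iBAT539 and the 3 iWAT libraries (adjusted p between 0.0676 and 0.12). All 33 mitochondrial ribosomal protein genes were positive, yet their median was 0.91 and 5 were called, Mrps22 first among them (1.67 ± 0.40, adjusted p = 0.00613). Of 12 peroxisomal genes 2 were called, with Abcd3, a peroxisomal fatty acid transporter, at 1008 to 1329 CPM in iBAT and 183 to 420 CPM in iWAT.

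**Figure D3:**
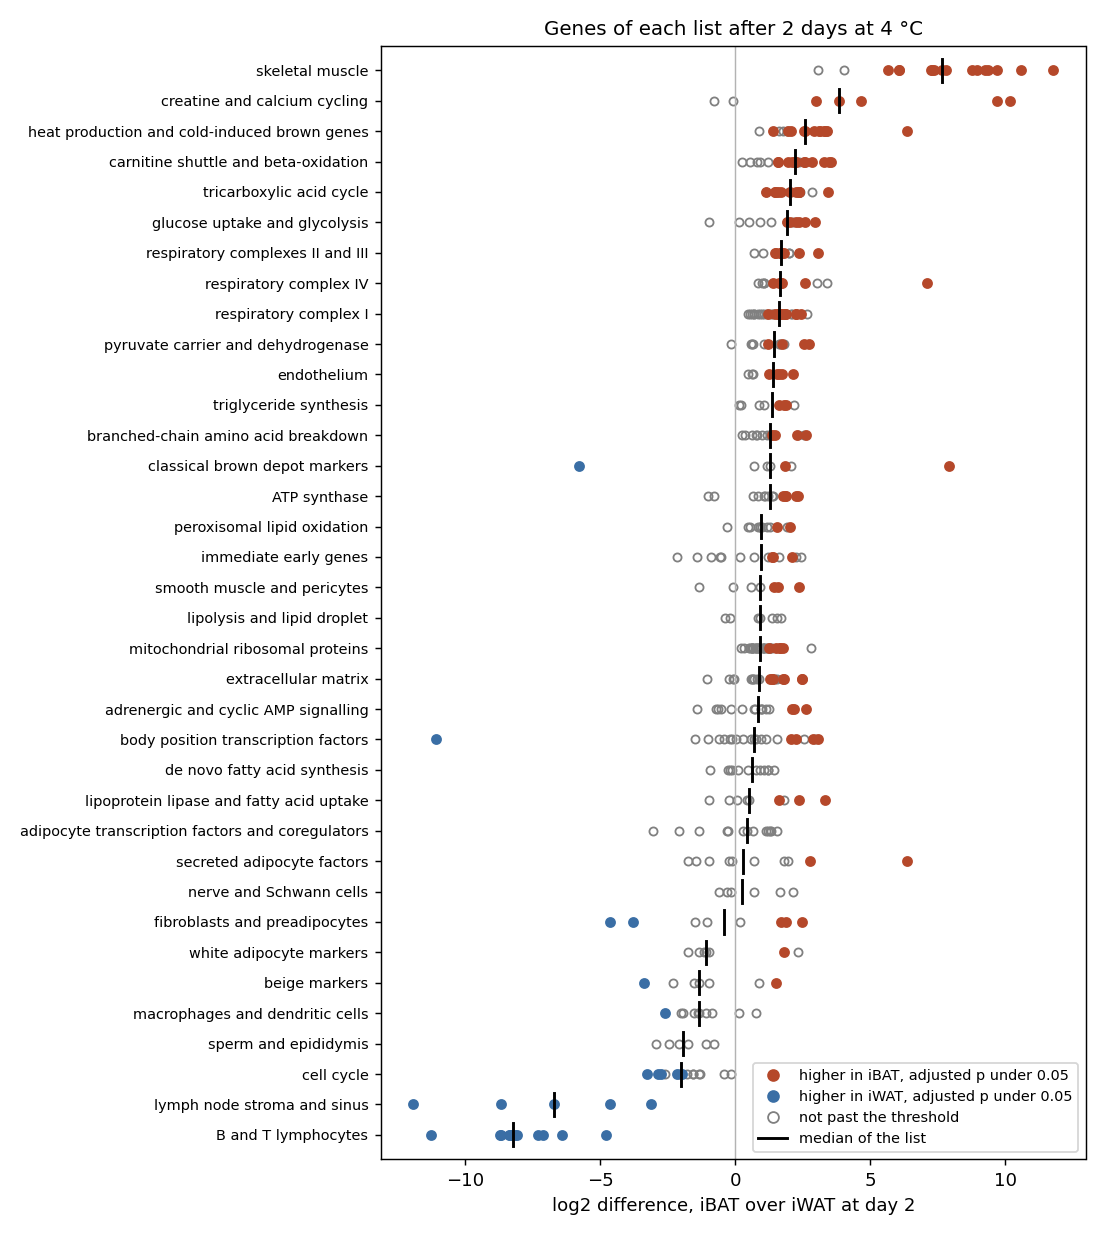
Log2 difference of iBAT over iWAT at day 2 for each tested gene of the lists with 5 or more tested genes, sorted by the list median (black bar); filled points passed an adjusted p of 0.05 in the direction of their side. Muscle, heat production and mitochondrial lists lie to the right, lymphocyte, lymph node and cell cycle lists to the left.

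Of 13 tested genes of glucose uptake and glycolysis, 6 were called higher in iBAT, with a median of 1.94. Slc2a4, the insulin-regulated glucose transporter GLUT4 of fat and muscle, had 260, 212, 611 and 580 CPM in iBAT, against 78.0, 88.2 and 75.1 CPM in iWAT (2.37 ± 0.65, adjusted p = 0.0139). Ldhb, a lactate dehydrogenase subunit, was even across libraries at 5098, 4677, 5196 and 4337 CPM in iBAT and 1796, 1067 and 920 CPM in iWAT (1.94 ± 0.44, adjusted p = 0.00393). Pgam1, the phosphoglycerate mutase, differed by 2.57 ± 0.67, but near-identical copies make its counts uncertain. Tpi1 had 1074 to 5438 CPM in iBAT and 359 to 1071 CPM in iWAT and was not called (adjusted p = 0.0732). The call of Slc2a4 was lost without iWAT532 or iWAT539 (adjusted p = 0.0567 and 0.0714), and that of Pgam1 without iWAT538 or iWAT539 (0.0517 and 0.0525). None of 12 genes of de novo fatty acid synthesis was called in either direction, with Acacb, the mitochondrial acetyl-CoA carboxylase, closest at 1.21 ± 0.47 (adjusted p = 0.0833). None of 7 genes of lipolysis and the lipid droplet was called either, Plin2, the droplet coat protein, being 1.68 ± 0.63 apart (adjusted p = 0.0695). Plin2 was called without iBAT532 or iWAT538 (adjusted p = 0.0499 and 0.0498), and DESeq2 called 2 members of the list. Without iBAT532, the genes Eci1, Col3a1 and Angptl4 were also called (adjusted p = 0.0472, 0.0188 and 0.0394).

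Triglyceride synthesis and fatty acid uptake gave 3 calls each. Gpd1, which makes glycerol 3-phosphate, had 4770, 9491, 7658 and 4879 CPM in iBAT and 1913, 2232 and 1536 CPM in iWAT (1.82 ± 0.44, adjusted p = 0.00576). Gpam, the first acyltransferase of glycerolipid synthesis, differed by 1.64 ± 0.44 (adjusted p = 0.0125, and 0.0567 and 0.0748 without iWAT532 and without iWAT539), and Agpat2, the next, by 1.06 ± 0.48 without a call (adjusted p = 0.133). Lpl, the lipase that frees fatty acids from circulating lipoproteins, had 6347, 8248, 8329 and 8676 CPM in iBAT, against 1732, 4101 and 1871 CPM in iWAT (1.62 ± 0.48, adjusted p = 0.0229, and 0.11 and 0.128 without iWAT532 and without iWAT539). Fabp3, a fatty acid binding protein of heart, muscle and brown fat, had 2702, 2145, 1027 and 2266 CPM in iBAT and 466, 417 and 310 CPM in iWAT, a call (adjusted p = 0.0359) that leaving out any 1 library except iBAT535 ended. Angptl4, an inhibitor of the lipase, had 966 CPM in iBAT535 and 212 to 315 CPM in the other iBAT libraries, against 78.8 to 187 CPM in iWAT, and was not called (adjusted p = 0.0558).

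Creatine and calcium cycling, routes of heat production that do not need UCP1, gave 5 calls among 7 tested genes and a median of 3.83. Ckb, the brain-type creatine kinase of brown fat mitochondria, had 2205, 678, 1371 and 901 CPM in iBAT, against 156, 52.7 and 63.7 CPM in iWAT, with no overlap (3.83 ± 0.69, adjusted p = 0.000466). Alpl, an alkaline phosphatase that can hydrolyse phosphocreatine, had 65.7 ± 11.9 CPM in iBAT and 8.27 ± 3.41 CPM in iWAT (SD, n = 4 and 3), also without overlap (2.99 ± 0.69, adjusted p = 0.00421). Ckmt2, the mitochondrial creatine kinase of muscle, and Atp2a1, the calcium pump of fast muscle, differed by 10.19 ± 1.57 and 9.70 ± 1.51 and moved with the muscle markers. The calls of Ckb and Alpl held without any 1 library. The part of muscle in these 4 genes was not tested.

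Receptors, signalling genes and regulators gave few calls. Of 16 tested adrenergic and cyclic AMP genes, 3 were called higher in iBAT. Adra1a, an alpha-1 adrenergic receptor, had 23.9, 31.0, 37.1 and 35.5 CPM in iBAT and 5.11, 4.97 and 5.23 CPM in iWAT, the groups far apart for their spread (2.63 ± 0.52, adjusted p = 0.00125). Pde4d, a phosphodiesterase that degrades cyclic AMP, differed by 2.18 ± 0.46 (adjusted p = 0.0022), and Nr4a1, a nuclear receptor induced by cyclic AMP, by 2.09 ± 0.54 (adjusted p = 0.00965, and 0.0573 without iWAT539). Adrb3, the main beta receptor of rodent adipocytes, had 193, 73.7, 226 and 373 CPM in iBAT and 80.7, 95.9 and 160 CPM in iWAT, with an overlap and no call (0.95 ± 0.57, adjusted p = 0.273). Adrb1, the beta receptor of brown adipocyte precursors, was separated at 55.0 to 85.6 CPM in iBAT and 21.2 to 35.9 CPM in iWAT (adjusted p = 0.0887). None of 13 adipocyte transcription factors and coregulators was called. Esrra, a regulator of mitochondrial genes, differed by 1.28 ± 0.46 (adjusted p = 0.0619). Irf4, which regulates heat production genes in brown fat and is also a lymphocyte gene, was named after its values were seen: it had 24.6, 46.7, 4.23 and 0.696 CPM in iBAT and 144, 162 and 167 CPM in iWAT (-3.04 ± 1.24, adjusted p = 0.0972). At day 0 Irf4 averaged 273 CPM in iBAT and 62.7 CPM in iWAT, with a log2 difference of 2.12, and its gap changed by -5.16 ± 1.71 (unadjusted p = 0.0065, adjusted p = 0.384) and by -3.93 with the library score. The lymphocyte markers were called higher in iWAT at both days. Among the iBAT libraries, iBAT539 had the lowest Irf4 and the highest lymphocyte sum, but low counts may be missing there. The part of lymphocytes in the Irf4 values was not tested. Among 10 secreted factors 2 were called, Bmp8b and Fndc5, the precursor of irisin (2.78 ± 0.71, adjusted p = 0.00949, and 0.0684 without iWAT539).

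Of 19 tested extracellular matrix genes, 7 were called higher in iBAT and none higher in iWAT, with a median of 0.87. Without iBAT535 and iBAT539, 2 were called. Lum, a collagen-binding proteoglycan, had 53.0, 130, 237 and 96.0 CPM in iBAT, against 13.2, 34.3 and 22.3 CPM in iWAT (2.47 ± 0.55, adjusted p = 0.00307). Mfap5, a microfibril protein, had 18.7, 13.8, 65.4 and 50.8 CPM in iBAT, highest in iBAT535 and iBAT539, and 6.99, 5.96 and 6.82 CPM in iWAT (2.49 ± 0.59, adjusted p = 0.00507). Fbn1 differed by 1.81 ± 0.38 (adjusted p = 0.00194) and Col4a1, a basement membrane collagen, by 1.76 ± 0.45 (adjusted p = 0.00979, and 0.0671 without iWAT538). Col3a1, a fibrillar collagen, overlapped between the depots (adjusted p = 0.0594). Fibroblast and preadipocyte markers went both ways, with 3 of 8 called higher in iBAT and 2 higher in iWAT. On the plain library total their summed level was lower in every iBAT library, at 418 to 716 CPM in iBAT and 800 to 1430 CPM in iWAT (exact two-sided permutation p = 0.0571, the smallest possible). This separation depends on the scaling. With the TMM factors used for the gene calls, 0.713 in iBAT535 and 1.17 in iWAT538, the sum of iBAT535 lies above that of iWAT538. Of the genes called higher in iBAT, Ly6a lost its call without 6 of the 7 libraries and Pi16 without 5 of the 7 (adjusted p between 0.0521 and 0.159). Dpp4, a marker of interstitial progenitors that T cells also express, had 0 to 4.70 CPM in iBAT and 56.4 to 83.9 CPM in iWAT, and Cd55, which leukocytes also carry, had 8.21 to 16.0 CPM in iBAT and 133 to 162 CPM in iWAT. Both moved with the lymphocyte markers.

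Of 8 endothelial genes 5 were called higher in iBAT, Tie1, a vascular receptor, among them at 140 ± 51.1 CPM in iBAT and 45.5 ± 9.74 CPM in iWAT (SD, n = 4 and 3, adjusted p = 0.0149, and 0.0767 and 0.0627 without iWAT538 and without iWAT539), although the summed endothelial markers overlapped at 404 to 710 CPM in iBAT and 301 to 541 CPM in iWAT (exact two-sided permutation p = 0.286). None of the 8 was called with library size alone, without iBAT535 and iBAT539, or without iWAT539. Rgs5, a pericyte gene, had 69.6 to 95.5 CPM in iBAT and 27.2 to 29.6 CPM in iWAT (1.44 ± 0.37, adjusted p = 0.00932). Of 16 cell cycle genes 5 were called lower in iBAT and none higher, with all 16 negative. Cdk1, the mitotic kinase, had 4.87 to 8.96 CPM in iBAT and 30.1 to 38.5 CPM in iWAT (-2.14 ± 0.46, adjusted p = 0.00265), Mcm2, a replication helicase subunit, differed by -2.73 ± 0.73, and Mki67 by -2.01 ± 0.77 without a call (adjusted p = 0.0772). At day 2 the cell cycle genes shared the direction of the lymphocyte markers. From day 0 to day 2 the median change of the gap was 0.63 for cell cycle genes, with 13 of 16 positive. For the lymphocyte markers it was -1.18, with 2 of 12 positive. The part of lymphocytes in the cell cycle differences was not tested. Among macrophage and dendritic cell genes, Itgax was called lower in iBAT at 3.44 to 11.8 CPM in iBAT and 24.9 to 40.5 CPM in iWAT, and C1qa, a macrophage complement gene, was not called (adjusted p = 0.208). Of 14 tested immediate early genes, rapid responders to many stimuli including handling of tissue, Jun, Fosl2 and Nr4a1 were called higher in iBAT. The call of Jun was lost without iWAT532 or iWAT538 (adjusted p = 0.086 and 0.0634), and that of Fosl2 without iBAT539 or any 1 iWAT library (adjusted p between 0.0694 and 0.158). On plain library totals the summed immediate early genes overlapped, at 620 ± 197 CPM in iBAT and 701 ± 146 CPM in iWAT (SD, n = 4 and 3, exact two-sided permutation p = 0.571). The gene calls use TMM scaling, with factors of 0.713 to 0.851 in iBAT and 1.05 to 1.21 in iWAT. That scaling raises the iBAT sums against the iWAT sums, and the order of the immediate early means depends on it. The endothelial sums are also on plain totals.

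The gap at day 2 was then set against the gap at day 0, with 1 interaction test per gene. At day 0, 846 genes (8.59%) were called higher in iBAT and 1023 (10.4%) higher in iWAT. The same direction was called at both days in 998 genes, 60.3% of the day 2 calls and 53.4% of the day 0 calls, and the opposite direction in 2. The median absolute log2 difference was 0.81 at day 2 and 0.84 at day 0. No gene passed the test for a changed gap in edgeR (0.0% of those tested, with 1124 genes, 11.4%, at an unadjusted p under 0.05) or in limma voom, while DESeq2 called 40, of which 29 were positive and 11 negative. Some libraries also stood apart between the days along the axis of their own depot. At day 0 the iBAT libraries scored between -39.6 and 4.29. Of the 4 iWAT libraries, 3 scored between 28.0 and 46.2, and iWAT522 scored -63.1. At day 2 iBAT535 and iBAT539 scored 55.3 and 51.4, while iBAT532 and iBAT534, at -37.2 and 0.42, lay within the day 0 range. The iWAT libraries scored between -53.2 and -7.27 at day 2, all above iWAT522. Values with the score as a covariate are given beside the changes below.

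Heat production genes stood closer together at day 2 than at day 0 in some cases, while other fitted gaps were similar or wider. The list median was 2.60 at day 2 and 3.29 at day 0, with 12 and 15 of 17 genes called. The median change was -0.40, with 6 of 17 changes positive, and -1.27 with the score, with 3 of 17 positive. Over all genes tested the median change was 0.01, with 4964 of 9843 positive, and 0.07 with the score, with 5212 positive. For Ucp1 the log2 difference was 1.92 at day 2 and 5.08 at day 0, where the means were 6983 CPM in iBAT and 206 CPM in iWAT. The change of the gap was -3.16 ± 1.08 (unadjusted p = 0.0079, adjusted p = 0.392) and -2.90 with the library score. Cidea changed by -2.65 ± 0.89 (unadjusted p = 0.0069) and Pdk4 by -2.73 ± 0.87 (unadjusted p = 0.0049), -1.90 and -1.84 with the score. Bmp8b, with 3 counts in iWAT at day 2, changed the other way by 2.93 ± 1.66 (edgeR unadjusted p = 0.0919), or 3.98 with the score. Cox8b changed by 2.14 ± 1.88 (edgeR unadjusted p = 0.269), but by -2.84 with the score. Fabp3, which muscle also expresses, changed by -3.24 ± 0.99 (unadjusted p = 0.0036), and by -3.12 with the score. The summed muscle markers also differed between the days. They ran from 18460 to 61293 CPM at day 0 and from 6961 to 11211 CPM at day 2 in iBAT. In iWAT they ran from 47.1 to 3508 CPM and from 30.7 to 89.9 CPM. The median change of the gap was 2.44 for the tested muscle markers, with 13 of 17 positive. With the score it was 2.19, with 14 of 17 positive. Of these markers 3 had no count in iWAT at day 2. The part of muscle in the changes of Fabp3 and the genes named before it was not tested. The gaps of Dio2 and Elovl3 were 2.91 and 3.15 at day 2 and 3.09 and 3.57 at day 0, changes of -0.18 and -0.42, or -0.65 and -0.85 with the score. Their levels were set side by side between the days without a test: Dio2 averaged 411 CPM at day 2 and 38.2 CPM at day 0 in iBAT, and 54.7 CPM at day 2 and 4.28 CPM at day 0 in iWAT. None of these changes passed the adjusted threshold, which does not show that the gaps were equal.

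**Figure D4:**
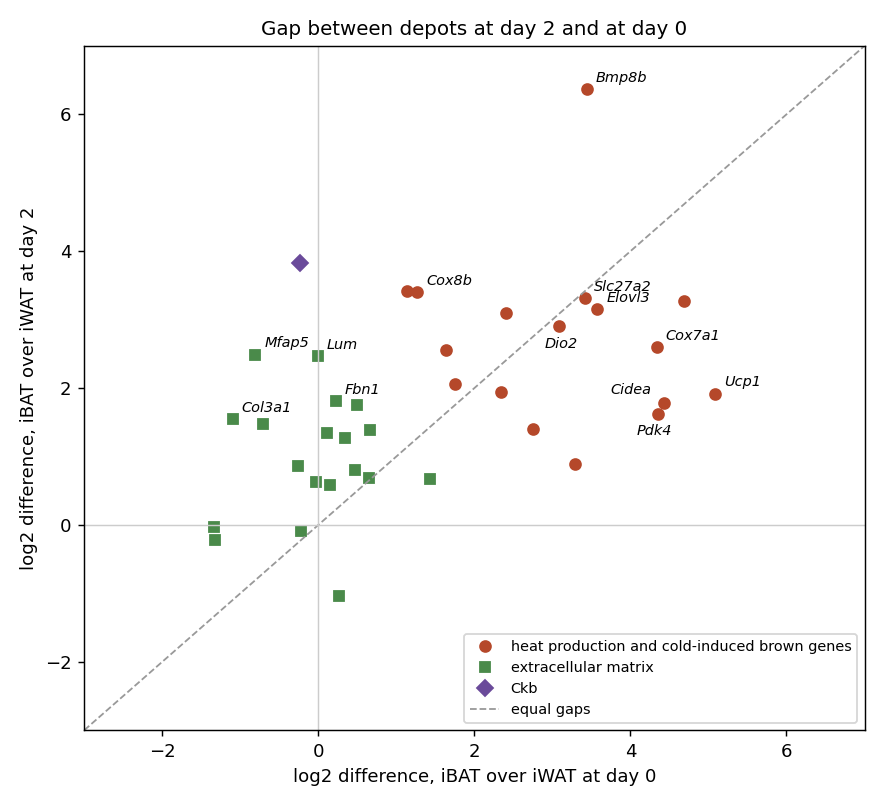
Log2 difference of iBAT over iWAT at day 2 (vertical axis) against day 0 (horizontal axis) for the heat production list, the extracellular matrix list and Ckb; the dashed line marks equal gaps. Ucp1, Cidea and Pdk4 lie below the line, Ckb and most matrix genes above it.

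Other gaps were wider at day 2. Ckb was level at day 0, at 64.4 CPM in iBAT and 75.6 CPM in iWAT, and averaged 1289 CPM in iBAT and 90.7 CPM in iWAT at day 2. Its gap changed by 4.06 ± 0.89 (adjusted p = 0.290 in edgeR and 0.0024 in DESeq2) and by 4.22 with the library score. In the extracellular matrix list no gene was called at day 0, and the median gap was 0.11 at day 0 against 0.87 at day 2. Of its changes 17 of 19 were positive, against 4964 of 9843 over all genes tested. Their median was 1.11, and 1.19 with the score. Mfap5 changed by 3.30 ± 0.80, or 2.65 with the score, and was called by DESeq2 (adjusted p = 0.0174). Acsl5 and Mpc1 changed by 3.03 ± 0.94 and 3.12 ± 1.13, but by 0.96 and 0.75 with the score. Genes named after their values were seen include Ctsz, a lysosomal protease, whose gap changed by 2.43 ± 0.52 (DESeq2 adjusted p = 0.00054), and Tesc, a calcium-binding protein, by 3.38 ± 0.70 (0.00097). Vwf, the endothelial von Willebrand factor, changed by 4.16 ± 0.94 (0.0046), with 51.2 CPM in iBAT535 and 6.72 to 13.9 CPM in the other iBAT libraries at day 2. Impdh1, an enzyme of guanine nucleotide synthesis, changed by -3.80 ± 0.84 (0.0095), with means of 64.1 CPM in iBAT and 40.9 CPM in iWAT at day 2 and of 503 CPM in iBAT and 23.0 CPM in iWAT at day 0. Tesc and Vwf also lost their day 2 call in 6 and 4 of the 7 fits without 1 library. The changes of these 4 genes with the score were 2.35, 3.69, 3.17 and -2.96.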

How the data were processed

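Total RNA of dissected, snap-frozen fat depots was sequenced, and the authors deposited whole-number read counts per RefSeq transcript accession, 1 table per depot. The submitters' processing notes name cutadapt, BWA and the build mm10. The counting tool and the use of strand are not given in the sources used here. Tables were joined on accessions with a row in both, an empty cell was read as 0, and the accession with most counts stood for its symbol. edgeR 4.0.16 in R 4.3.3 (TMM, filterByExpr with a minimum count of 10 and a total of 15, robust quasi-likelihood test, Benjamini-Hochberg adjusted p under 0.05) was fitted to 22 iBAT and iWAT libraries in 6 groups. DESeq2 1.42.0 and limma 3.58.1 voom were alternatives, with other scalings, filters, covariates and left-out libraries. The procedure was tested on simulated data with known changes. Intervals and floors cover counting error only, at 95%, with a floor of 3 counts over a group. They do not cover low counts that may be missing from iBAT539. Members and lists were chosen with earlier results of these data known. Genes are named by a fixed set, the 10 largest separated differences in each direction, and the members of each list with the smallest adjusted p plus 1 not called; others are marked as named after their values were seen.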

Additional observations from a re-analysis of the deposited data

Results flagged for a closer look

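In groups of 4, a library was singled out where its gap to the nearest other, over the range of the group, exceeded Dixon's 95% critical value. This held for 15 of 140 values of the iBAT libraries at day 2. A rate of about 1 in 20 would apply to independent, normally distributed values. These values are not independent, since some sums hold genes that are also listed, so the count cannot be read against that rate. iBAT539 held the high value for Hba-a1, a hemoglobin gene, at 319 CPM against 3.29 to 20.2 CPM in the other iBAT libraries, and for the summed red blood cell markers at 464 CPM against 3.35 to 25.4 CPM. It was also highest for Itgax at 11.8 CPM, Mylk4 at 73.8 CPM, Tmem26 at 4.18 CPM, with the others at 0, and the summed lymphocyte markers at 20.8 CPM. iBAT535 was highest for Angptl4 at 966 CPM, Tpi1 at 5438 CPM, Hoxa5 at 110.0 CPM and Vwf at 51.2 CPM. iBAT534 was highest for Abcd3 at 1329 CPM and Bckdha at 1216 CPM, and lowest for Cd79a at 1.97 CPM and Ppp1r27 at 17.2 CPM. iBAT532 was highest for the summed smooth muscle and pericyte markers at 725 CPM against 439 to 464 CPM. The call of Hba-a1 was lost without iBAT539 (edgeR adjusted p = 0.109).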

How the results depend on the processing

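Genes called higher in iBAT and in iWAT at day 2 numbered 359 and 1612 with library size alone, 321 and 474 without iBAT535 and iBAT539, and 287 to 684 and 616 to 882 without 1 library at a time. With the label number as a replicate block they numbered 23 and 68. Of 128 genes checked, 80 lost their call under the block. Ckb and Dio2 were among them, with log2 differences of 3.82 and 3.12 (edgeR adjusted p = 0.0567 and 0.158). The difference of Ucp1, not called in either fit, was 1.48 under the block. Only 2 numbers are shared at day 2 and the labels do not tie them to animals. The block therefore cannot show whether a lost call is a weaker effect. DESeq2 called 29 positive and 11 negative changes of the gap, and edgeR none. The sign of Adipoq turned with the library score (1.00), and its log2 difference ran from -0.39 to 0.13 without 1 library. That of Hoxc8 ran from -0.74 to 0.022. The cause was not tested.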
